A study of Mus musculus with 2 samples.

Results

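Fc receptors are the proteins through which cells bind antibodies, and 9 genes of this family, Fcgr1, Fcgr3, Fcgr4, Fcgr2b, Fcer1g, Fcgrt, Fcrls, Fcmr and Fcer2a, were followed here through the leukocytes of mouse tumours. They were picked by their symbols from the 31053 genes of the count matrix, and all 9 were found. The tumours were grown under the skin of C57BL/6 mice from MTC-Q1, an oral cancer line of the mouse. The 2 groups were tumours grown from miR-21 KO MTC-Q1 cells and tumours grown from WT MTC-Q1 cells; miR-21 was lost in the injected cancer cells of the first group, not in the host whose leukocytes were sequenced. Both groups received cisplatin at 5 mg/kg after 2 weeks of growth and were taken 72 hours later, dead cells were removed, CD45-positive cells were selected with microbeads, and each group gave 1 single-cell library of transcript 3′ ends. How many mice stand behind each library is not stated in the labels.

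The matrix marks every barcode with library 1 or library 2, and no source used here says which of these is the miR-21 KO group. The values are therefore given side by side for the libraries, no direction is drawn between KO and WT, and with 1 library per group no test was possible. Intervals are exact 95% intervals on the number of unique molecular identifiers (UMIs, 1 per captured transcript molecule) and cover counting error only. Library 1 held 5320 barcodes and 57488236 UMIs and library 2 held 7194 barcodes and 149734240 UMIs; 8 barcode sequences occurred in both. After filtering, 4978 and 6743 cells were left, with medians of 7002 and 14834 UMIs per cell. Median mitochondrial shares were 3.97% and 2.09%, and the ribosomal-RNA locus gene Gm42418 had 25361 and 7453 counts per 1e6 UMIs (CPM). Scaling without mitochondrial and ribosomal genes and Gm42418 shifted the log2 ratios of library 1 over library 2, given below. The shift was 0.03 in macrophage-like, 0.02 in monocyte-like, 0.16 in regulatory T cell-like and 0.22 in the other T cell-like cells. Any further part of these differences in the results was not tested.

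Cells were placed in classes by marker genes, none of them an Fc receptor gene, and are called "like" the type whose markers they hold. Library 1 was led by 2613 naive-type T cell-like cells, against 18 in library 2, and had 418 B cell-like cells, against 0. Macrophage-like cells numbered 340 in library 1 and 1852 in library 2, monocyte-like cells 141 and 862, and NK cell-like cells 139 and 957. Fibroblast-like cells, 81 and 439 in number, were present in spite of the CD45 selection and had 8.24 and 10.9 CPM of Ptprc, which encodes CD45, where macrophage-like cells had 519 and 455 CPM. Between 0.351% and 4.34% of a class's molecules were estimated to be free RNA from other cells, from markers that the class should lack. The low end rested on 1 UMI in the cDC1-like cells of library 1. Cells with many markers of another lineage had been set aside before, so the estimates may be too low and multiples of free RNA too high.

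Antibody-binding receptors fall into activating, inhibitory and transporting kinds. Fcgr1, Fcgr3 and Fcgr4 encode activating receptors for IgG, which reach the membrane and signal through the common gamma chain encoded by Fcer1g; the chain carries the activation motif that recruits the kinase Syk. Fcgr2b encodes the inhibitory IgG receptor, which recruits the phosphatase SHIP1, the product of Inpp5d, and sets the threshold for macrophage and B cell activation. Fcgrt encodes the heavy chain of the neonatal receptor, which returns IgG from endosomes with B2m as its partner. Fcmr binds IgM, Fcer2a (CD23) is the low-affinity IgE receptor of B cells, and Fcrls is a mouse member of the Fc receptor-like family best known as a marker of microglia in brain.

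All 9 genes were annotated as protein-coding in GRCm38.p6. Fcgr2b (chr1:170958617-170976547), Fcgr4 (chr1:171018920-171029761), Fcgr3 (chr1:171051174-171064935) and Fcer1g (chr1:171229572-171234365) lay within 275.7 kb of chromosome 1. Fcmr lay apart on the same chromosome (chr1:130865669-130880791), Fcgr1 (chr3:96282909-96293969) and Fcrls (chr3:87250758-87263738) on chromosome 3, Fcgrt (chr7:45092990-45103851) on chromosome 7 and Fcer2a (chr8:3681737-3694175) on chromosome 8. Fcgr3 and Fcgr4 each overlapped a gene on the same strand, Mir6546 and Gm26110, and Fcgr2b and Fcgrt a predicted gene on the other strand, Gm38204 and Gm45669; reads in the overlaps are uncertain. Of the 90-base windows in the last 500 bases of the members' transcripts, 0 occurred in another gene.

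The 150 bases before the annotated start are shown for 6 members that stand for the patterns described below: Fcgr1 and Fcgr3 as activating receptors of myeloid cells, Fcgr2b as their inhibitory counterpart, Fcer1g as the chain used beyond them, Fcrls as the gene of macrophage-like cells and Fcmr as the gene of B cell-like cells. The sequences are RefSeq's for GRCm38.p6, read 5′ to 3′ on the gene's strand, and capitals mark matches to GAGGAA, or TTCCTC on the other strand, the core recognised by PU.1, a factor of myeloid and B cells. The stretches are chr3:96293970-96294119 (minus strand) for Fcgr1, chr1:171059404-171059553 (minus strand) for Fcgr3, chr1:170976072-170976221 (minus strand) for Fcgr2b, chr1:171234350-171234499 (minus strand) for Fcer1g, chr3:87263525-87263674 (minus strand) for Fcrls and chr1:130865627-130865776 (plus strand) for Fcmr.
Fcgr1: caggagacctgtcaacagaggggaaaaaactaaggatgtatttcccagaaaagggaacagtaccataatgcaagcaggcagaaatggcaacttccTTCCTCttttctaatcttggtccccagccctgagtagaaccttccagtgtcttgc
Fcgr3: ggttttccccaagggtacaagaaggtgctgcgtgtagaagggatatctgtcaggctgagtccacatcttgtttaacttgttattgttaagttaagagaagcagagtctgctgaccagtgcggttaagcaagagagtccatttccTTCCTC
Fcgr2b: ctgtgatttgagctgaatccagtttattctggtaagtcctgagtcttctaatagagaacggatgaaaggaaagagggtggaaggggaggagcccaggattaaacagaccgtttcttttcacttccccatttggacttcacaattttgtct
Fcer1g: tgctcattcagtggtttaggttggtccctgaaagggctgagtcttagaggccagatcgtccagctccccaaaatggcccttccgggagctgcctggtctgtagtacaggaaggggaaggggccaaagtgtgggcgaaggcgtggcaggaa
Fcrls: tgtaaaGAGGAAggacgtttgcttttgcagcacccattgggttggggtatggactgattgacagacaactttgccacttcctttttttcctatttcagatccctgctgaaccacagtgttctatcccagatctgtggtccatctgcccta
Fcmr: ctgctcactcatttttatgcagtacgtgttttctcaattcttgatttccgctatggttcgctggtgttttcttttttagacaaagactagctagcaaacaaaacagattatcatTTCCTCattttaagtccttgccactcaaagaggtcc
Both strands of the window from 250 bases before to 50 bases after the start were searched in all 9 members. The PU.1-type letters occurred in 5 of 9, Fcgr1, Fcgr3, Fcgr4, Fcrls and Fcmr, and in 28.3% of 27025 mouse promoters. A match says only that the letters are there.

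The activating IgG receptors were genes of macrophage-like and monocyte-like cells in both libraries. These classes made up 6.83% and 2.83% of the cells of library 1 and 27.5% and 12.8% of those of library 2. They held 64.0% and 19.5% of the Fcgr1 molecules of all kept cells in library 1, and 65.2% and 17.0% in library 2. Over whole libraries Fcgr1 had 108 CPM in library 1 and 271 CPM in library 2, Fcgr3 had 107 and 258 CPM and Fcgr4 had 58.7 and 109 CPM, where more cells of a class and more RNA per cell cannot be told apart. The values that follow are therefore levels within a class, as CPM, that is, UMIs of the gene scaled to the UMIs of the class. They carry no length scaling, since the assay counts 3′ ends, so levels of different genes are compared only as shares of molecules.

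Fcgr1, the high-affinity IgG receptor, was highest in monocyte-like cells. There its level was 718 CPM (677 to 761) in library 1, and in library 2 it was 829 CPM (809 to 850); macrophage-like cells had 615 CPM (596 to 635) and 736 CPM (727 to 745). The intervals of these classes did not overlap in either library, and in cells of at least 10000 UMIs alone macrophage-like cells led in library 2. In library 2, which had enough dendritic cells, cDC2-like cells followed at 285 CPM (258 to 315) and migratory DC-like cells at 121 CPM (97.4 to 149). In the migratory DC-like cells 11 of 55 had a UMI of Fcgr1, and 1 cell held 35 of the 90 UMIs, so a few cells carried that level. Every lymphocyte and fibroblast-like class of at least 50 cells lay under 10 CPM in both libraries.

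Fcgr3, a low-affinity receptor for IgG complexes, was highest in macrophage-like cells, with 665 CPM in library 1 (644 to 686) and 761 CPM in library 2 (751 to 770). Monocyte-like cells had 468 CPM (435 to 503) and 428 CPM (413 to 443). NK cell-like cells, in which this receptor is known as CD16 and triggers antibody-dependent killing, came after the myeloid cells with 36.5 CPM (28.7 to 45.9) and 45.8 CPM (42.6 to 49.1). That was 31.2 and 8.53 times the level estimated from free RNA, with lower bounds of 24.5 and 7.94 times.

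Fcgr4, the mouse counterpart of human CD16A on myeloid cells, leaned further toward macrophage-like cells, with 407 CPM in library 1 (391 to 423) and 354 CPM in library 2 (347 to 360). Monocyte-like cells had 209 CPM (187 to 233) and 136 CPM (127 to 144). NK cell-like cells had 1.98 and 2.02 CPM, from 4 and 34 UMIs, and Fcgr3 was the only activating IgG receptor whose lower bound lay above free RNA in them.

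Shares of cells were compared after each cell had been thinned to 4000 UMIs, so that depth was equal. Fcgr1 was seen in 82.1% (77.6 to 86.0) of the thinned macrophage-like cells of library 1 and in 89.1% (87.6 to 90.5) of those of library 2. Fcgr3 was seen in 88.5% (84.7 to 91.7) and 90.7% (89.3 to 92.0), and Fcgr4 in 70.6% (65.4 to 75.4) and 62.9% (60.6 to 65.1). The intervals of the libraries overlapped for Fcgr3 and were apart for Fcgr1 and Fcgr4. Without thinning the shares were 97.6% and 99.1%, 98.8% and 99.1%, and 93.5% and 90.2%. Naive-type T cell-like cells of library 1, which should lack all of them, had 1.19%, 1.07% and 0.344%, at a median of 6212 UMIs per cell where macrophage-like cells had 16142 and 16584 before thinning.

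**Figure D1:**
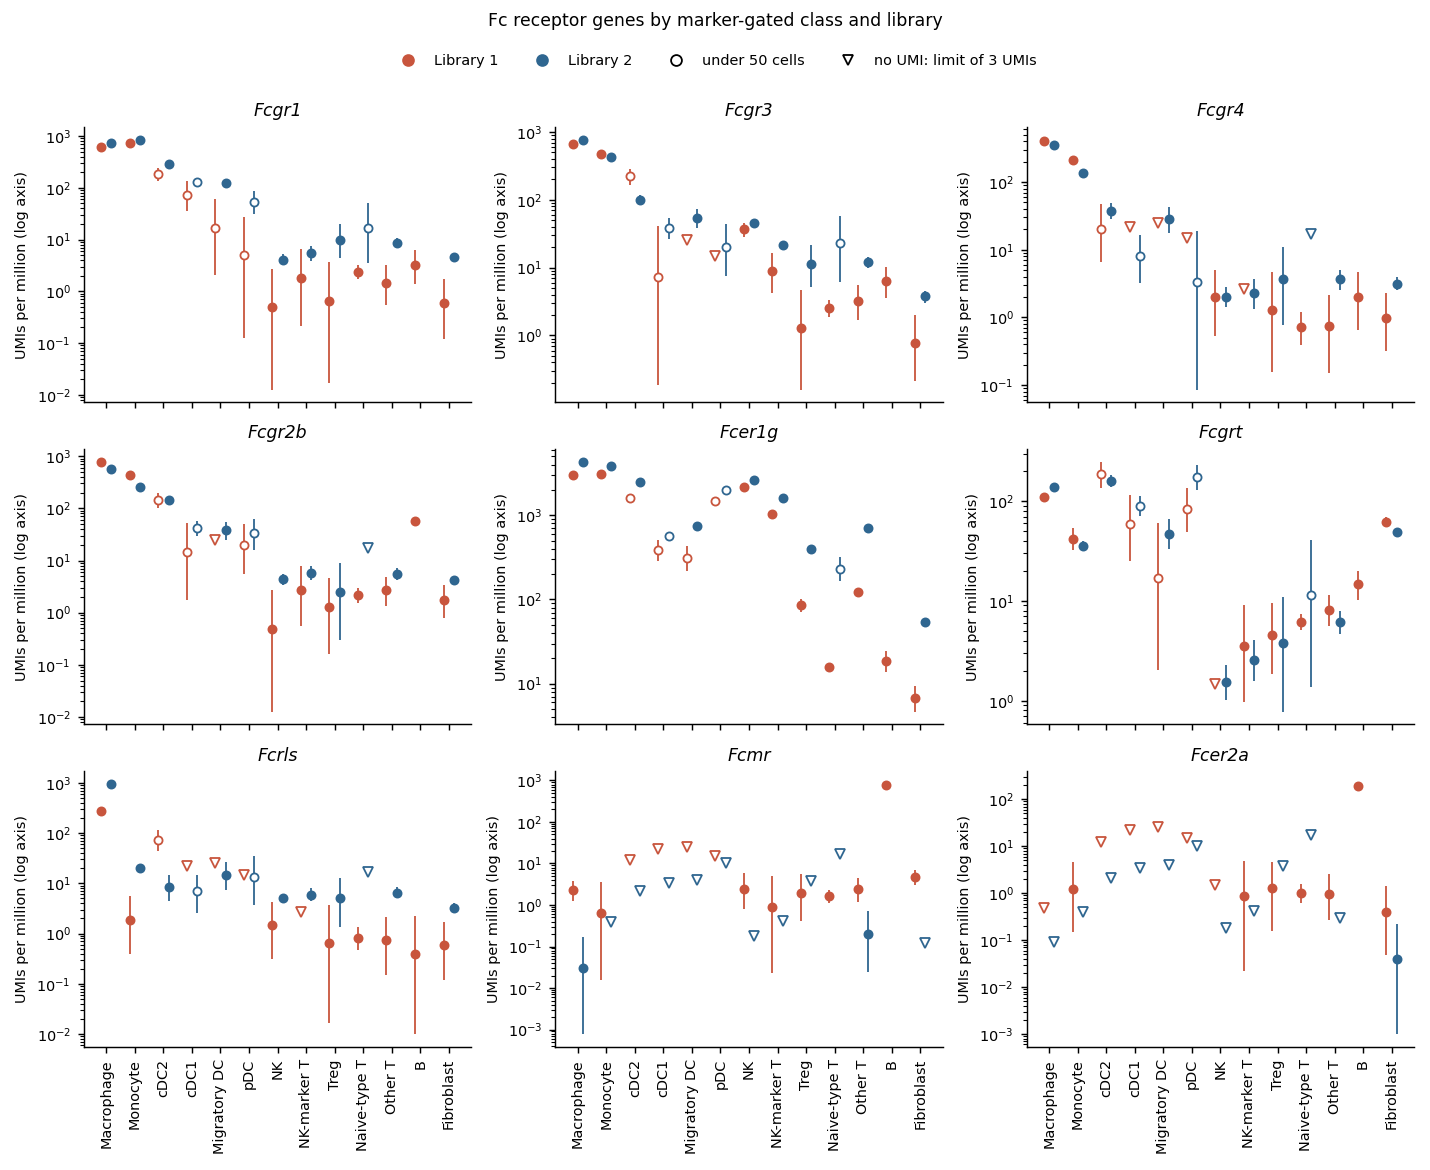
Level of each Fc receptor gene in each cell class (CPM, log axis), library 1 left of library 2, with exact Poisson intervals for counting error; open circles are classes under 50 cells and triangles the limit of 3 UMIs where none was seen. The IgG receptors stand high in macrophage-like and monocyte-like cells, Fcer1g is also high in NK cell-like cells, and Fcmr and Fcer2a are high in the B cell-like cells of library 1.

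The inhibitory receptor Fcgr2b took a larger share of the IgG receptor molecules in library 1 than in library 2, in both macrophage-like and monocyte-like cells. In macrophage-like cells it had 758 CPM in library 1 (737 to 780) and 560 CPM in library 2 (552 to 568), and in monocyte-like cells 431 CPM (400 to 465) and 254 CPM (242 to 265). Of all molecules of Fcgr1, Fcgr3, Fcgr4 and Fcgr2b, it made up 31.0% (30.3 to 31.8) and 23.2% (22.9 to 23.5) in macrophage-like cells and 23.6% (22.1 to 25.2) and 15.4% (14.8 to 16.1) in monocyte-like cells. In macrophage-like cells Fcgr1 made up 25.2% and 30.5% of the molecules and Fcgr3 27.2% and 31.6%, both lower in library 1. The activating receptor Fcgr4 went the other way, with 16.6% and 14.7%. In monocyte-like cells Fcgr1 made up 39.3% and 50.4%, Fcgr3 25.6% and 26.0%, and Fcgr4 11.5% and 8.24%, the last again higher in library 1. In cDC2-like cells the intervals overlapped, at 25.5% (18.6 to 33.6) from 19 cells of library 1 and 25.1% (22.1 to 28.2) from 130 cells of library 2.

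**Figure D2:**
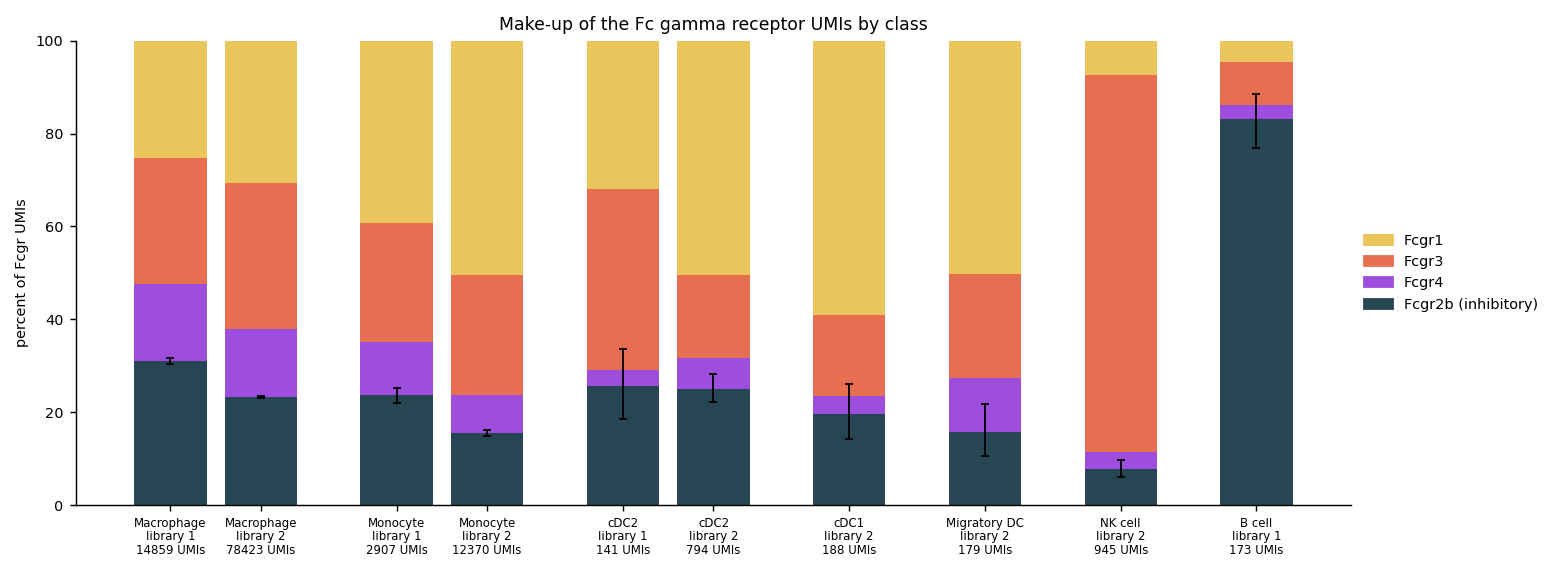
Share of Fcgr1, Fcgr3, Fcgr4 and Fcgr2b molecules among the molecules of these 4 genes (%), library 1 left of library 2, with Clopper-Pearson intervals for Fcgr2b. Myeloid, dendritic, NK cell-like and B cell-like classes are drawn where a library had at least 100 such UMIs. T cell-like and fibroblast-like classes are not drawn. Fcgr2b takes 31.0% and 23.2% in macrophage-like cells, Fcgr3 takes most in the NK cell-like cells of library 2, and Fcgr2b takes 83.2% in the B cell-like cells of library 1.

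Shares of cells showed the same side for Fcgr2b. Thinned macrophage-like cells held it in 87.6% in library 1 and 81.8% in library 2, and monocyte-like cells in 68.8% (60.5 to 76.3) in library 1 and 49.4% (46.0 to 52.8) in library 2. The untouched shares were 98.8% and 97.7% in macrophage-like cells and 85.8% and 65.9% in monocyte-like cells, against 0.880% in the thinned naive-type T cell-like cells of library 1. Fcgr2b was compared between macrophage-like cells with and without each activating receptor, and the intervals overlapped for each receptor in both libraries. It was seen in 89.4% (85.3 to 92.6) of the library 1 macrophage-like cells with Fcgr3 and in 74.4% (57.9 to 87.0) of those without. In library 2 it was seen in 82.6% (80.7 to 84.3) of those with Fcgr3 and in 74.4% (67.2 to 80.8) of those without. For Fcgr1 the shares with and without it were 87.5% and 88.5% in library 1 and 82.1% and 79.7% in library 2, with overlapping intervals. For Fcgr4 they were 89.2% and 84.0% in library 1 and 83.5% (81.2 to 85.6) and 78.9% (75.7 to 81.9) in library 2. In the monocyte-like cells of library 2 the intervals were apart for Fcgr3, at 53.1% (49.1 to 57.1) with it and 39.7% (33.5 to 46.3) without. They were also apart for Fcgr1 there, at 52.4% (48.7 to 56.2) and 36.9% (29.6 to 44.7). They overlapped for Fcgr4 there, and for each receptor in the monocyte-like cells of library 1. Overlap of intervals does not show that shares are equal. Cells still differ in size and quality after thinning, and the part of that in these pairs was not tested.

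To compare cells at like positions between the types, cells of both classes were put in 6 bins by the share of macrophage markers among their macrophage and monocyte marker UMIs. From the lowest bin, under 20%, to the highest, over 99%, the Fcgr2b share was 20.5%, 23.2%, 33.7%, 31.6%, 32.7% and 29.7% in library 1 and 12.7%, 16.5%, 23.7%, 22.0%, 23.7% and 23.4% in library 2. It was higher in library 1 in 6 of 6 bins. Along the same axis Fcgr4 had 173 CPM in the lowest bin and 450 CPM in the highest bin of library 1, and 112 and 383 CPM in library 2. Fcgr1 peaked in the 20% to 50% bin of library 1 at 1078 CPM (986 to 1175) and was level over the 20% to 50% and 50% to 80% bins of library 2 at 924 and 924 CPM, with 618 and 706 CPM in the highest bins of libraries 1 and 2.

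**Figure D3:**
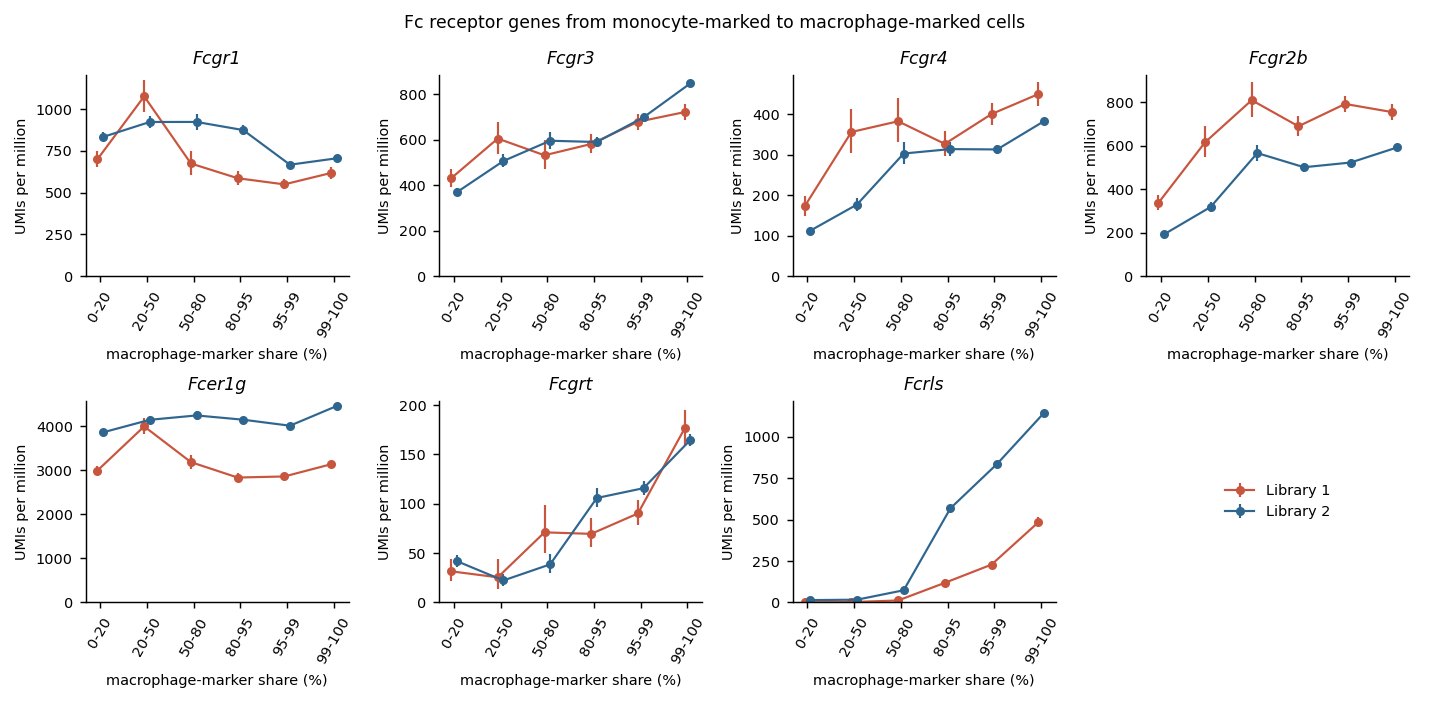
Levels of 7 Fc receptor genes (CPM) in 6 bins of cells from monocyte-like to macrophage-like, by the share of macrophage markers among macrophage and monocyte marker UMIs (%), for libraries 1 and 2, with exact Poisson intervals. Fcrls reaches 484 CPM in the last bin of library 1 and 1144 CPM in that of library 2, and Fcgr2b lies higher in library 1 in every bin.

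Fcer1g, the signalling chain, was the most widely used member. Monocyte-like cells had 3094 CPM in library 1 (3008 to 3182) and 3897 CPM in library 2 (3852 to 3942). Macrophage-like cells had 3024 CPM (2980 to 3068) and 4297 CPM (4275 to 4320), so these classes overlapped in library 1 and macrophage-like cells led in library 2. NK cell-like cells had 2155 CPM (2092 to 2220) and 2595 CPM (2571 to 2620), cDC2-like cells 1603 and 2515 CPM, and pDC-like cells 1476 and 2026 CPM, the last 2 from few cells in library 1. All thinned NK cell-like cells of library 1 held it (100%, 97.4 to 100) and 99.9% (99.4 to 100) of those of library 2.

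Molecules of the 4 Fcgr genes, Fcgr2b included although it does not use the chain, were fewer than those of the chain in macrophage-like, monocyte-like, NK cell-like and pDC-like cells. Among these classes NK cell-like cells had the fewest per chain molecule in library 2. In macrophage-like cells there were 0.809 Fcgr molecules per Fcer1g molecule in library 1 and 0.561 in library 2, and in monocyte-like cells 0.590 and 0.422. NK cell-like cells had 0.0183 and 0.0217, and the pDC-like cells of library 2 had 0.0548. The 18 pDC-like cells of library 1 had 1 UMI of Fcgr1, 4 of Fcgr2b and 0 of Fcgr3 and Fcgr4, beside 298 of Fcer1g. NK cells are known to pair the chain with other receptors too, among them Ncr1, which had 282 CPM (260 to 307) and 244 CPM (236 to 251) in NK cell-like cells. Ncr1 is a marker of the NK gate, so a high level in this class follows in part from the gating. The alpha and beta chains of the high-affinity IgE receptor, Fcer1a and Ms4a2, had 0 UMIs in library 1 and 108 and 11 UMIs in all of library 2.

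T cells that held Fcer1g were more frequent in library 2. In T cell-like cells with NK markers it had 1024 CPM in library 1 (966 to 1085) and 1599 CPM in library 2 (1570 to 1628), and was seen in 72.7% (62.2 to 81.7) and 88.2% (84.9 to 91.0) of thinned cells. T cell-like cells below the NK, naive and regulatory marker limits of the gates, which may still hold some of these markers, had 123 CPM (112 to 134) and 715 CPM (698 to 731). Fcer1g was seen in 9.89% (7.36 to 12.9) and 53.9% (50.3 to 57.4) of them. Naive-type T cell-like cells of library 1 gave the low end, with 15.8 CPM, 1.12 times their free RNA estimate, and 4.25% (3.51 to 5.09) of thinned cells; fibroblast-like cells, which should lack the gene, had 2.47% and 16.9%. Regulatory T cell-like cells had 85.0 CPM (71.0 to 101) and 398 CPM (356 to 444), at 6.30% and 49.0% of thinned cells; their 6 macrophage markers summed to 86.3 and 297 CPM and their 5 monocyte markers to 493 and 1166 CPM, whose part in this was not tested.

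The T cell-like cells below those marker limits were split into subsets. Cells with gamma-delta constant genes had 559 CPM in library 1 (492 to 634) and 1034 CPM in library 2 (996 to 1073). Cells with neither Cd4 nor Cd8 had 171 CPM (141 to 205) and 1338 CPM (1282 to 1395), and Cd8 cells 64.8 CPM (54.1 to 77.1) and 417 CPM (400 to 435). Gamma-delta cells led in library 1 and cells with neither co-receptor in library 2. Cells with Cd4 had 12.5 CPM (5.71 to 23.7) in library 1, 1.03 times the free RNA estimate. In library 2 they had 135 CPM (92.0 to 190), 1.64 times an estimate of 82.2 CPM, from 31 cells and 32 UMIs. These subsets were all higher in library 2, and their cell numbers differed too. Gamma-delta cells made up 38 of 475 cells in library 1 and 184 of 789 in library 2. Cells with Cd8 numbered 218 and 404, cells with neither co-receptor 90 and 138, and cells with Cd4 109 and 31. The part of these numbers in the difference of the whole class was not tested. Beside Fcer1g, the 6 macrophage markers summed to 102 and 327 CPM in the class and the 5 NK markers to 88.0 and 112 CPM. Tyrobp, the gene of the separate chain DAP12, had 32.2 and 242 CPM. All 6 macrophage markers and all 5 NK markers were detected in both libraries, and their part in the Fcer1g difference was not tested.

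**Figure D4:**
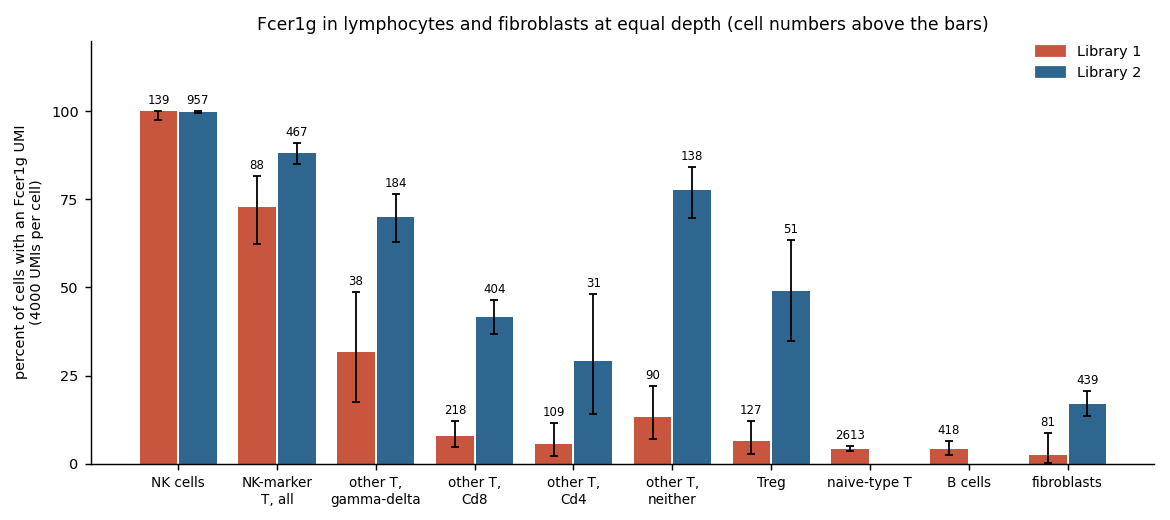
Share of cells thinned to 4000 UMIs in which Fcer1g was seen (%), in lymphocyte classes, subsets of the other T cells and fibroblast-like cells, library 1 left of library 2, with exact Clopper-Pearson intervals and cell numbers above the bars. NK cell-like cells stand near 100% in both libraries, and Cd8 cells of the other T cells at 7.80% and 41.6%.

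Fcrls had the largest ratio between libraries of any member measured in macrophage-like cells. It had 276 CPM in library 1 (263 to 290) and 940 CPM in library 2 (930 to 951), a log2 ratio of library 1 over library 2 of -1.77 (-1.84 to -1.70), or 3.40-fold lower in library 1. A member was called past the limit when it was at least 2-fold apart with an interval beyond 1.5-fold and had at least 100 UMIs. Of the 7 members measured in macrophage-like cells, 1, Fcrls, was past it, where 3.61% of 9868 genes were past it in either direction. The other 6 ranged from -0.51 for Fcer1g to 0.44 for Fcgr2b, and the median log2 ratio was -0.26 over the members and 0.04 over all genes measured.

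The Fcrls difference lay in the number of cells that held it and in the amount per cell. It was seen in 42.6% (37.3 to 48.1) of thinned macrophage-like cells of library 1 and in 73.8% (71.7 to 75.8) of those of library 2, and in 59.4% and 84.9% before thinning. The median cell had 2 UMIs in library 1 and 12 in library 2, and the highest cells had 58 and 122. Naive-type T cell-like cells of library 1 had it in 0.421% of thinned cells. Fcrls was higher in library 2 in 6 of 6 bins between monocyte-like and macrophage-like cells, with 118 and 569 CPM in the fourth bin and 484 and 1144 CPM in the last. The lowest bin and the next rested on 1 UMI each in library 1. Library 2 had 14.1 and 16.6 CPM in them, beside a free RNA estimate of 8.66 CPM in its monocyte-like cells. Within each library Fcrls was the member most tied to macrophage-like cells, which held 85.9% and 87.6% of its molecules.

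In monocyte-like cells, too, 1 of 7 measured members, Fcrls, was past the limit, beside 2.85% of 5994 genes. That call rested on 3 UMIs in library 1 and 153 in library 2 (log2 ratio -3.43, -5.73 to -1.86), and the level in library 2, 20.4 CPM, was 2.35 times its free RNA estimate. The call was lost with stricter gates, with unsupervised clusters, in cells of at least 10000 UMIs and with free RNA subtracted. The next largest log2 ratios in these cells were 0.77 (0.64 to 0.89) for Fcgr2b and 0.63 (0.44 to 0.81) for Fcgr4. Fcgrt, at 0.25 (-0.16 to 0.64), had an interval that held 0, and the medians were 0.13 over members and 0.15 over all genes.

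**Figure D5:**
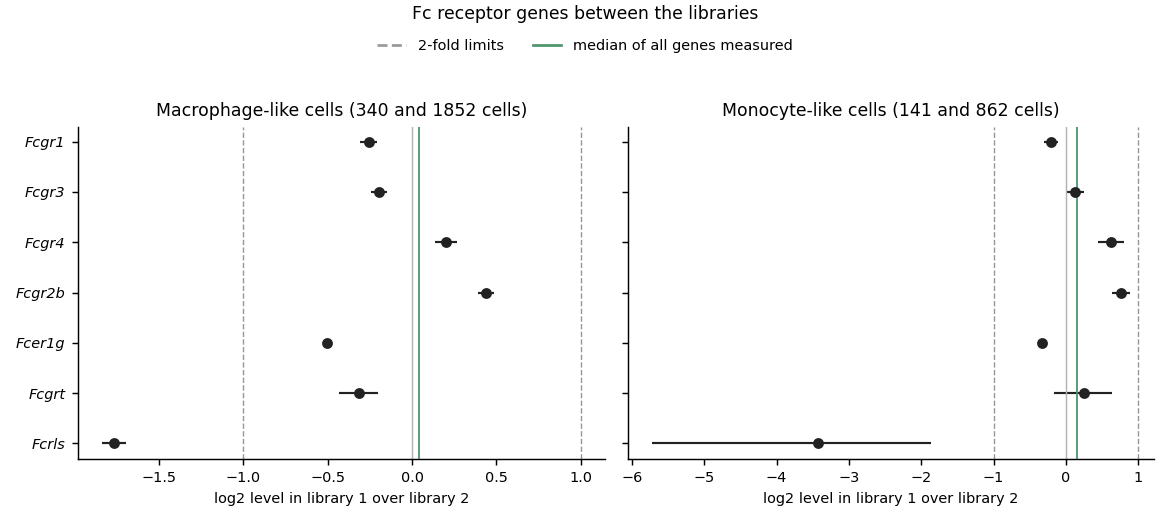
Log2 ratio of library 1 over library 2 for 7 members in macrophage-like and monocyte-like cells, with exact conditional binomial intervals; dashed lines are the 2-fold limits, the green line is the median of all genes measured, and the x scale differs between panels. Fcrls lies at -1.77 in macrophage-like cells, and Fcgr2b lies above 0 in macrophage-like and monocyte-like cells.

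Outside the myeloid cells few members could be compared. In NK cell-like cells 2 members had 100 UMIs and 0 were past the limit, beside 3.79% of 7987 genes; Fcgr3 stood at -0.32 (-0.69 to 0.02) and Fcer1g at -0.27 (-0.31 to -0.22). In T cell-like cells with NK markers it was also 0 of 2, beside 2.79% of 6305 genes. In regulatory T cell-like cells 1 of 1, Fcer1g at -2.23 (-2.53 to -1.93), was past it, beside 11.6% of 2987 genes, from 127 cells of library 1 and 51 of library 2. In the other T cell-like cells 2 of 2 were past it, beside 10.1% of 7692 genes, Fcer1g at -2.54 (-2.68 to -2.41) and Fcgr3 at -1.90 (-2.85 to -1.07). The Fcgr3 ratio rested on 13 and 121 UMIs, at 1.52 and 1.90 times free RNA. In fibroblast-like cells 2 of 4, Fcgr1 and Fcer1g, were past it, beside 4.13% of 9898 genes, at 1.04 and 1.55 times free RNA in library 2.

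Fcgrt, the IgG-recycling receptor, was spread differently from the other members. It had 111 CPM in library 1 (103 to 120) and 138 CPM in library 2 (134 to 142) in macrophage-like cells, and cDC2-like cells had 186 CPM (136 to 248) from 19 cells and 160 CPM (140 to 182) from 130 cells. Fibroblast-like cells had 62.4 CPM (55.7 to 69.6) and 49.6 CPM (46.9 to 52.4), 226 and 52.5 times free RNA. It was the only member whose lower bound lay above free RNA in those cells in both libraries. Monocyte-like cells had less than macrophage-like cells, at 42.1 and 35.5 CPM, and NK cell-like cells had 0 and 26 UMIs. Along the bins it stood at 31.6 CPM in the lowest and 176 CPM in the highest bin of library 1, and at 41.9 and 165 CPM in library 2. Its partner B2m had 4723 and 3057 CPM in macrophage-like cells.

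The B cell members Fcmr and Fcer2a were measured in library 1 alone, since no cell of library 2 entered the B cell-like class. In the 418 B cell-like cells of library 1 Fcmr had 789 CPM (755 to 825) and Fcer2a 194 CPM (178 to 212). Fcmr was seen in 88.3% (84.8 to 91.2) and Fcer2a in 48.1% (43.2 to 53.0) of thinned cells, against 0.765% and 0.421% of naive-type T cell-like cells; median depths were 5027 and 6212 UMIs. Fcer2a was seen in 50.7% (45.5 to 55.9) of cells with Fcmr and in 28.6% (16.6 to 43.3) of those without, and 93.0% (88.6 to 96.1) of the cells with Fcer2a also had Fcmr. Over whole libraries Fcmr had 4027 UMIs in library 1 and 26 in library 2, and Fcer2a had 1112 and 7. The B cell-like class held 59.3% of the Fcmr and 53.9% of the Fcer2a molecules of kept cells in library 1, and cells with markers of more than one lineage held 36.8% and 41.4%.

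B cells are known to carry Fcgr2b as their only IgG receptor, and in the B cell-like cells it made up 83.2% (76.8 to 88.5) of the IgG receptor molecules. Its level there was 56.9 CPM (48.0 to 67.0), 20.5 times free RNA, and it was seen in 23.7% (19.7 to 28.1) of thinned cells. Fcer1g had 18.6 CPM in these cells, 1.25 times free RNA with a lower bound of 0.916 times, so it was not detectable above the background. IgM and IgD transcripts led their antibody genes, with Ighm at 1693 CPM and Ighd at 868 CPM. Of the relatives, Fcrla had 189 CPM, Fcrl1 had 94.8 CPM and Fcrl5 had 11.9 CPM in these cells. Ighg1, an IgG ligand of the Fc gamma receptors, had 10621 UMIs in library 1, of which 98.3% came from 1 barcode, and 0 in library 2.

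Across the 9 members, 7 had a leading class of at least 10 CPM in both libraries, and for 5 of them the class was the same: monocyte-like for Fcgr1 and macrophage-like for Fcgr3, Fcgr4, Fcgr2b and Fcrls. Of 9435 genes with such a class in each library, 48.9% had the same one. Fcer1g was led by monocyte-like cells in library 1 and macrophage-like cells in library 2, and Fcgrt by macrophage-like and cDC2-like cells; cDC2-like cells were too few in library 1 to lead there.

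Genes most like each member were found by Pearson correlation of log2(CPM + 10) over the 7 classes large enough in both libraries, ranked by the lower value of the libraries among 3834 genes. Since these classes are few and share their libraries, the coefficients describe which class leads and carry no p. The genes most like Fcgr1 included Igsf6, Lyz2, Gm6377 and Sirpb1c, all with r of at least 0.998 in both libraries. Fcgr3 was most like Fes, Unc93b1, Sdcbp, Sft2d1 and Lair1, and Fcgr4 like F11r, Tifab, Cd300ld, Cebpa and P2ry6. Fcgr2b was most like Clec4a1, March1, Tifab, Aif1 and Spint1, and of these Clec4a1, with 211 and 149 CPM in macrophage-like cells, had a log2 ratio of 0.50 (0.41 to 0.59). Fcer1g was most like Efhd2, Tyrobp, Lat2, Myo1f and Tm6sf1, and Fcgrt like Marcks, Rnase4, Ccl7, Itgb5 and Plxnb2.

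Fcrls was most like Folr2, Cbr2, Hpgds, Pf4 and Zmynd15, with r of 0.999, 0.997, 0.993, 0.990 and 0.972 in library 1. Some of these genes, not all, differed between the libraries in the same direction. Pf4, a chemokine gene, had 255 CPM in library 1 and 1689 CPM in library 2 in macrophage-like cells (log2 ratio -2.73, -2.80 to -2.65), and Folr2, a folate receptor of resident macrophages, had 94.0 and 259 CPM (-1.47, -1.59 to -1.34). Both were past the limit with Fcrls. Cbr2 had 117 and 210 CPM (-0.84) and was not past it. Hpgds had 96.3 and 96.7 CPM and Zmynd15 105 and 83.3 CPM. So 2 of the 5 genes most like Fcrls over classes were past the limit, beside 3.61% of 9868 genes.

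The genes that work with these receptors were read from 5 lists. The first list held 10 genes: partners of the gamma chain, receptors that use it, and Tyrobp, the gene of the separate chain DAP12. In macrophage-like cells 5 of the 10 were measured and 2 were past the limit, both higher in library 2, beside 3.61% of 9868 genes. These were the lectin receptors Clec4d, with 23.9 CPM in library 1 and 129 CPM in library 2, and Clec4n (Dectin-2), with 137 and 282 CPM; Tyrobp, with 1698 and 2846 CPM, was not past it. In monocyte-like cells 1 of 5 was past it, Clec4d, with 96.2 and 351 CPM, beside 2.85% of 5994 genes. The median log2 ratio of that list was -0.81 in macrophage-like and -0.51 in monocyte-like cells, beside 0.04 and 0.15 over all genes.

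Of 13 activating signalling genes, 0 were past the limit in macrophage-like cells, with Syk at 104 and 88.9 CPM and Lyn at 364 and 402 CPM. In monocyte-like cells 1 of 12 was past it, beside 2.85% of 5994 genes. It was the adaptor Gab2, with 35.2 CPM in library 1 and 16.5 CPM in library 2. Of 7 inhibitory signalling genes, 0 were past it in macrophage-like cells and 0 of 6 in monocyte-like cells. Inpp5d, which encodes the phosphatase that Fcgr2b recruits, had 199 and 167 CPM in macrophage-like cells (log2 ratio 0.25, 0.16 to 0.34) and 151 and 105 CPM in monocyte-like cells (0.53, 0.31 to 0.73). Ptpn6, the phosphatase SHP-1, had 249 and 208 CPM in macrophage-like cells (0.26, 0.18 to 0.34). Their ratios lay on the same side as that of Fcgr2b and were smaller than the 2-fold limit. The median of the inhibitory list was 0.25 in macrophage-like and 0.53 in monocyte-like cells. That side was shared by the medians of the activating list, 0.08 and 0.37, and of all genes measured, 0.04 and 0.15. Of 9 other Fc receptors and relatives, 2 were measured in macrophage-like cells, and of 8 antibody genes 1 was; 0 of these were past the limit.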

How the data were processed

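Per the labels' protocols, cells selected for CD45 were sequenced from transcript 3′ ends, in 1 library for each group. The authors deposited raw UMI counts of 31053 genes in 12514 barcodes, both libraries in 1 matrix, from Cell Ranger (the submitters' processing notes) at version 3.1.0 (the file headers); the notes name mm10 as the build. Not given in the sources used here are the strand setting, the annotation and whether reads were subsampled when libraries were joined.

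Cells needed at least 200 genes, 500 UMIs and at most 10% mitochondrial UMIs. The automatic threshold of Scrublet marked 0 doublets, so 263 and 355 barcodes, the top 5% by score in each library, were left out. Classes came from marker UMIs per 10000; macrophage-like cells needed 100, monocyte-like cells 20, T and NK cell-like cells 5 and B cell-like cells 5. Lymphocytes and fibroblasts with Lyz2 at 5 per 10000, and T and NK cells with MHC class II genes at 10, were set aside with cells of more than one lineage (460 and 660 cells), which also removes true cells that hold captured RNA; 44 and 387 cells were ungated. The gate limits and these exclusions were set after marker distributions had been seen, not the Fc receptor genes, and the members and gene lists were chosen with earlier results of these data known.

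A level is the UMI sum of a gene in a class, scaled to CPM; its interval is exact Poisson; ratios have exact conditional binomial intervals and shares exact Clopper-Pearson intervals, at the 95% level. Classes needed 50 cells and 200000 UMIs; a zero was set to 3 counts per library. Shares were taken after thinning each cell to 4000 UMIs. Free RNA was estimated from T cell markers in myeloid classes and C1q genes in the others. The ratio calculation was tested on simulated data. All 9 members are named, with the 5 most alike genes of each, except 1 that is not reported here (at least 50 CPM in a class of each library; Fcmr and Fcer2a had no such list) and members of 5 function lists. Promoters are RefSeq's. Python 3.11.15, numpy 2.4.6, scipy 1.17.1, pandas 2.3.3, scanpy 1.11.5 and matplotlib 3.10.9 were used.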

Additional observations from a re-analysis of the deposited data

How the results depend on the processing

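With 1 library per group there was no replicate check, and counting error is the only error known. Members past the limit in macrophage-like and monocyte-like cells numbered 2 as reported and 1 under stricter gates, under Leiden clusters, in cells of at least 10000 UMIs and with free RNA subtracted; Fcrls in macrophage-like cells kept its side, from -1.92 to -1.64 on the log2 scale over 9 alternatives. The Fcer1g share of T cell-like cells below the NK, naive and regulatory marker limits was compared as library 1 minus library 2. It was -44.0 percentage points as reported, -36.0 when thinned to 2000 UMIs and -52.9 under stricter gates. It was -49.9 when cells with Lyz2 or MHC class II were kept, an alternative chosen after seeing the data. The Fcgr2b share difference in macrophage-like cells stayed between 7.30 and 7.92 points over 8 alternatives, and the members with the same leading class in both libraries numbered 5 to 7. In cells of at least 10000 UMIs Fcgr1 was no longer among them and Fcer1g and Fcgrt were; under Leiden clusters Fcer1g and Fcgrt were added. The Fcgr1 log2 ratio in fibroblast-like cells was -2.96 as reported and 1.74 with free RNA subtracted, at levels near 0. No paired analysis was possible because each group had 1 library. Depth limits what can be said of classes under 50 cells in library 1.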

Other observations

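Dendritic cells were few, but in library 2 they held several of the receptors. The cDC1-like cells of library 2 had 127 CPM (105 to 153) of Fcgr1, 42.4 CPM (29.9 to 58.5) of Fcgr2b and 89.5 CPM (70.7 to 112) of Fcgrt, from 38 cells. The 18 pDC-like cells of library 1 had 84.2 CPM (49.0 to 135) of Fcgrt, and the 38 of library 2 had 175 CPM (131 to 229). A few cells carried these levels: 5 of 18 and 10 of 38 had a UMI, and 1 cell held 11 of 17 UMIs in library 1 and 1 held 21 of 52 in library 2. In the cDC2-like cells of library 1 all 18 UMIs of Fcrls came from 1 of 19 cells; those of library 2 had 8.54 CPM, 0.807 times free RNA.

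IgA transcripts of library 2 came mostly from a pair of barcodes. Igha had 59 UMIs in library 1 and 7101 in library 2, where 2 barcodes held 3435 and 2860 of them.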
